A study of Mus musculus with 16 samples.

Results

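The 4 transcription factors of the MiT/TFE family (Mitf, Tfeb, Tfe3 and Tfec) and 4 genes known to respond to factors of the MITF type (Trpm1, Gpnmb, Ctsk and Acp5) were followed by gene symbol across microglia of wild-type (WT) mice and of transgenic (TG) 5xFAD mice. Of these 8 symbols 7 were among the 17951 genes of the deposited table, and Acp5 was not analysed here. The study asked how the gene expression of microglia that have taken up amyloid differs from that of microglia that have not. Mice received an injection of Methoxy-X04 (Me-X04), an amyloid-binding dye that crosses from blood to brain and fluoresces, and Cd11b- and Cd45-positive cells were then sorted from the brain, with staining for Cx3cr1 added per the study's methods. The data are RNA sequencing of 16 libraries: 7 from WT mice, 5 from cells of TG mice without dye (TG Me-X04-) and 4 from cells of TG mice that carried dye (TG Me-X04+).

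All groups, WT included, are labelled with the strain 5xFAD and received the dye. The 5xFAD mouse carries transgenes driven by the neuronal Thy1 promoter, so the transgenes act from neurons and not from microglia, and amyloid plaques form in the brain. By their labels the WT mice were 2 months old and the TG mice 6 months old, whereas the study's methods give other ages. Age and genotype therefore cannot be told apart in either comparison with WT. Within TG, the libraries numbered 1 to 4 of both populations share the labels TG1 to TG4, read here as the animal, while TG5 has a TG Me-X04- library only. The WT animals are other animals. The study's methods count a single mouse as a replicate.

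The MiT/TFE factors are basic helix-loop-helix leucine zipper proteins that bind DNA as dimers, among themselves or with each other. Tfeb, Tfe3 and Mitf are held in the cytoplasm when mTORC1 on the lysosome phosphorylates them, and on release they enter the nucleus and switch on genes of lysosomes and autophagy through the so-called CLEAR elements. Mitf is best known as the master regulator of pigment cells and of osteoclasts, where it drives the channel gene Trpm1, the glycoprotein gene Gpnmb and the collagen-degrading protease gene Ctsk. Because their activity is set largely by where the protein sits in the cell, the mRNA level of a factor is not a measure of its activity.

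Library depth ranged from 15623664 to 22119327 reads on listed genes in WT, from 17216633 to 25184600 in TG Me-X04- and from 22430251 to 27579017 in TG Me-X04+. The share of reads on mitochondrial genes was 10.96 to 24.1% in WT, 18.2 to 35.6% in TG Me-X04- and 27.2 to 44.8% in TG Me-X04+. The libraries parted into 2 sets on the first principal component of their deviations from the group means (37.8% of the variance), and each group has libraries in both: set A holds 7 libraries (WT replicates 1 to 3 and replicates 1 and 2 of each TG group) and set B the other 9. Per the study's methods additional samples were sequenced later on another platform, and no label says whether the sets follow this. All 10 microglia markers were listed, with a summed level of 4685 to 7062 RPKM in WT, 4080 to 8065 in TG Me-X04- and 5222 to 8169 in TG Me-X04+. The 6 border macrophage markers, none of them at 0 reads throughout a group, summed to 2.18 to 5.54 RPKM in WT, 1.46 to 7.32 in TG Me-X04- and 2.50 to 20.01 in TG Me-X04+. Of the melanocyte markers 1 of 5 (Pmel) was listed, at 0.293 to 3.40 RPKM in WT, 0.683 to 1.53 in TG Me-X04- and 0.219 to 1.79 in TG Me-X04+. Among the microglia markers Tmem119 fell and Trem2 rose in TG Me-X04+ against both other groups (log2FC -1.58 and 1.35 between the TG populations), and P2ry12 fell against WT (-0.97). Markers of 8 other cell types (monocytes, neutrophils, dendritic cells, oligodendrocytes and their precursors with pericytes, astrocytes, neurons, endothelium) were also read, 22 listed in all. Of these, 2 were called higher between the TG populations, Cspg4 (log2FC 4.24) and Flt1 (3.55), and none lower. Of all genes 3.44% were called higher there and 2.06% lower. Cspg4 and Flt1 were also called higher against WT (5.06 and 5.87), where Pecam1 (-4.83), Snap25 (-3.19) and Ccr2 (-1.57) were called lower. Against WT 8.25% of all genes were called higher and 6.02% lower. Cspg4 was at most 0.195 RPKM in WT and 0.128 in TG Me-X04-, and 0.248 to 2.53 in TG Me-X04+. The summed endothelial markers had a median of 9.86 RPKM for WT cells (highest 12.6). For TG Me-X04- cells the median was 1.91 (highest 2.58), and for TG Me-X04+ cells it was 1.59 (highest 7.81). Between the TG populations the endothelial markers Pecam1 (log2FC -2.47) and Cdh5 (-2.41) went opposite to Flt1, neither of them called. Cspg4 and Flt1 thus moved with Trpm1 and Gpnmb, whereas Pecam1, Snap25 and Ccr2 moved against them. The part of these markers in the results was not tested. In such bulk libraries fewer cells of a type and less RNA per cell cannot be told apart.

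The factor genes kept close to their WT level or lay below it in TG Me-X04+ microglia. Of the 3 listed target genes Trpm1 and Gpnmb lay far above it, Gpnmb in 3 of the 4 libraries. Both had few or no reads in WT and were listed through their TG reads, since genes with few reads were removed before deposit. The share of targets that rose therefore cannot be read from the listed ones. A gene was called when its adjusted p was under 0.05 and its log2 fold change (log2FC) was at least 0.7 in size (limma, Benjamini-Hochberg over all 17951 genes). Between the TG populations (TG Me-X04+ minus TG Me-X04-) 1 of the 7 genes was called, Trpm1, against 5.49% of all genes. Between TG Me-X04- and WT none of the 7 was called, against 0.201% of all genes, with 1 of them (Trpm1) at an unadjusted p under 0.05 and none called by voom on the recovered reads. Between TG Me-X04+ and WT 3 of the 7 were called, Trpm1 and Gpnmb higher and Tfeb lower, against 14.3% of all genes. The calls of Gpnmb and Tfeb were each lost in some alternatives, given below. These comparisons share their libraries (each group enters 2 of them), so their values for a gene are not independent of each other.

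**Figure D1:**
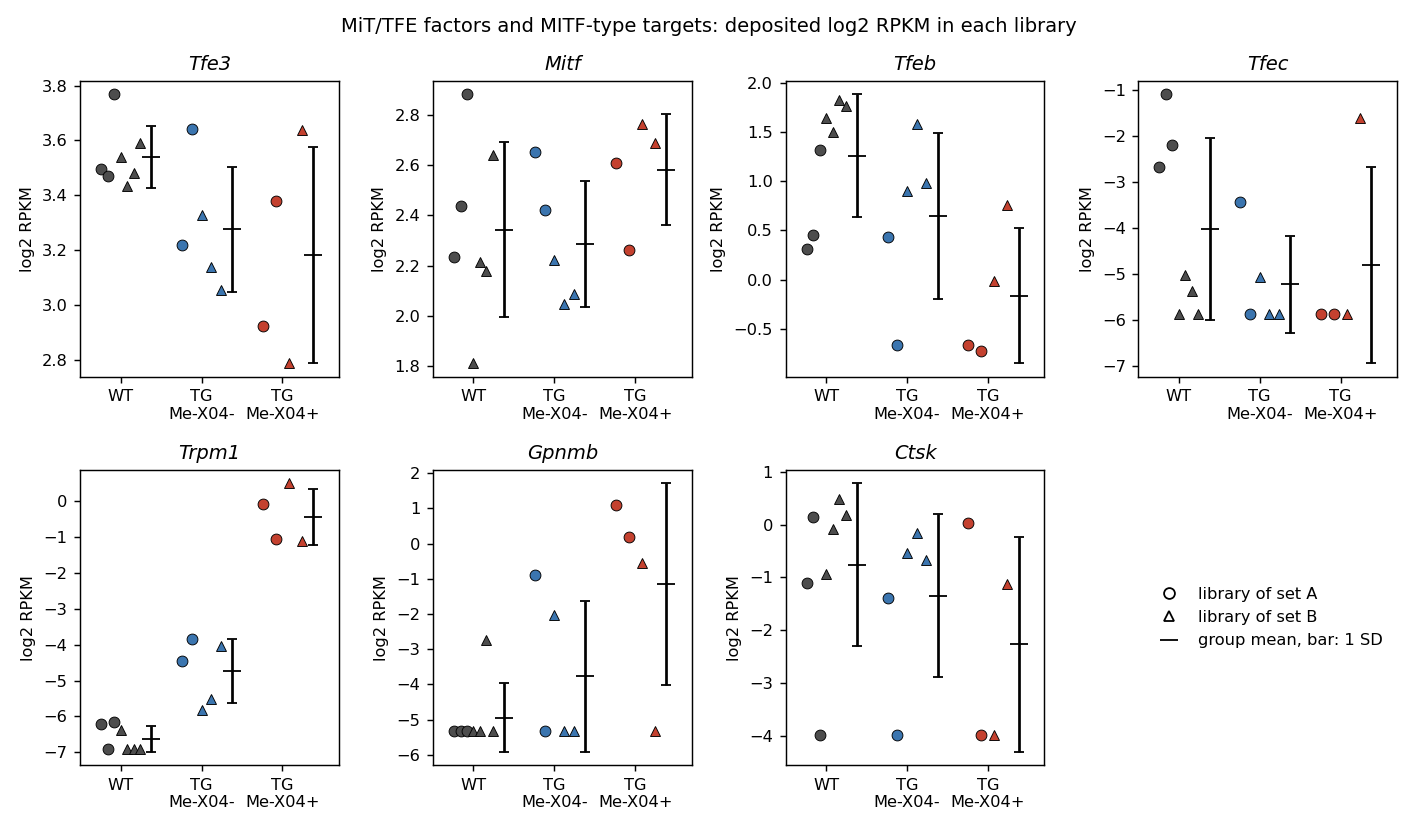
Deposited log2 RPKM (y axis) of the 7 genes in each library of the 3 groups (x axis), with circles for set A, triangles for set B, and the group mean with 1 SD at the right of each group. For Trpm1 the 4 TG Me-X04+ libraries lie between -1.11 and 0.49, above the 5 TG Me-X04- libraries, which lie above the 7 WT libraries.

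Levels are given as RPKM, reads scaled to the length of the gene and to the size of the library, on the log2 scale on which the authors deposited them, and can be compared between genes because they are per length. Tfe3, which with Tfeb drives lysosome genes, had the highest level of the family in every library. Its log2 RPKM was 3.54 ± 0.11 (SD, n = 7) in WT, 3.28 ± 0.23 (n = 5) in TG Me-X04- and 3.18 ± 0.39 (n = 4) in TG Me-X04+. Mitf followed in all 16 libraries, with Tfe3 higher by 1.20 ± 0.28 on the log2 scale in WT, by 0.99 ± 0.25 in TG Me-X04- and by 0.60 ± 0.52 in TG Me-X04+. Tfeb came next in all 16 libraries, with Mitf higher by 1.08 ± 0.74 in WT, by 1.64 ± 1.02 in TG Me-X04- and by 2.74 ± 0.58 in TG Me-X04+. Tfec, a member known mainly from macrophages, was at 3 or fewer reads in 11 of the 16 libraries. The distance of Tfe3 to Mitf in TG Me-X04+ ranged from 0.03 to 1.12 between libraries, so these neighbours in the order hardly parted in some of them.

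Tfe3 (chrX:7762560-7775202, plus strand, GRCm38, protein-coding, as are the other 6 genes) spanned 3.43 to 3.77 in the WT libraries with a median of 3.50. In the TG Me-X04- libraries it was 3.22, 3.64, 3.33, 3.14 and 3.06, and in the TG Me-X04+ libraries 2.93, 3.38, 2.79 and 3.64. The TG libraries spread more widely than the WT libraries, and all groups overlapped. The log2FC was -0.09 (95% interval -0.52 to 0.33, adjusted p = 0.853) between the TG populations and -0.36 (-0.75 to 0.04, adjusted p = 0.231) between TG Me-X04+ and WT.

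Mitf (chr6:97807052-98021349, plus strand) ranged from 1.81 to 2.88 in WT with a median of 2.24. It was 2.65, 2.42, 2.22, 2.05 and 2.09 in TG Me-X04- and 2.61, 2.26, 2.76 and 2.69 in TG Me-X04+, so that the groups overlapped throughout. The log2FC was 0.30 (95% interval -0.21 to 0.80, adjusted p = 0.565) between the TG populations and 0.24 (-0.23 to 0.71, adjusted p = 0.544) against WT. These intervals reach from -0.23 to 0.80 on the log2 scale. With libraries scaled by their reads outside mitochondrial genes both values turned to -0.10 and -0.06, while the median of all genes moved by -0.37 and -0.28. Within the sets the Mitf log2FC between the TG populations was -0.10 for set A but 0.61 for set B. The span of the processed pseudogene Gm15531 overlaps that of Mitf on the opposite strand. Whether exons of the 2 genes overlap was not examined, and reads in any shared exon could not be told apart without strand.

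Tfeb (chr17:47737030-47792419, plus strand), the factor best known for lysosome biogenesis, showed the lowest levels in the cells with dye. WT libraries ranged from 0.31 to 1.83 with a median of 1.5, from 115 to 505 reads. TG Me-X04- libraries were at 0.44, -0.67, 0.90, 1.58 and 0.98, and TG Me-X04+ libraries at -0.66, -0.72, -0.02 and 0.75, from 46 to 223 reads. TG Me-X04+ replicate 4 (set B) lay above the 2 lowest WT libraries (set A), and within each set every TG Me-X04+ library lay below every WT library.

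Tfeb fell in TG Me-X04+ microglia against WT, with a log2FC of -1.42 (95% interval -2.37 to -0.48, adjusted p = 0.0408), and set A alone gave -1.39, set B alone -1.32. Between the TG populations it was -0.81 (-1.82 to 0.20, adjusted p = 0.395), and between TG Me-X04- and WT -0.61 (adjusted p = 0.999). In the 4 pairs of libraries with the same TG label Tfeb was lower in the TG Me-X04+ library each time, by 1.10, 0.05, 0.92 and 0.82 on the log2 scale. The call against WT sits near the threshold: with 1 of the 11 libraries left out at a time it held only without WT replicate 1 or 2 or TG Me-X04+ replicate 4 (adjusted p up to 0.120 in the others), and it was lost with voom on the recovered reads (log2FC -1.40, adjusted p = 0.0619) and in the replicate block fit (log2FC -1.11, adjusted p = 0.0555). That block goes by replicate number and so ties WT libraries to TG libraries of other animals.

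Tfec (chr6:16833373-16898441, minus strand) was near the limit of detection. In WT it had 13, 42, 17, 0, 2, 1 and 0 reads, in TG Me-X04- 7, 0, 2, 0 and 0, and in TG Me-X04+ 0, 0, 0 and 41. The WT reads lay almost wholly in the 3 libraries of set A, and the TG Me-X04+ reads in 1 library of set B. The log2FC was 0.41 between the TG populations (adjusted p = 0.889) and -0.80 against WT (adjusted p = 0.685), and a difference was not detectable at this depth. Leaving out TG Me-X04+ replicate 4 turned the former value to -0.65.

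**Figure D2:**
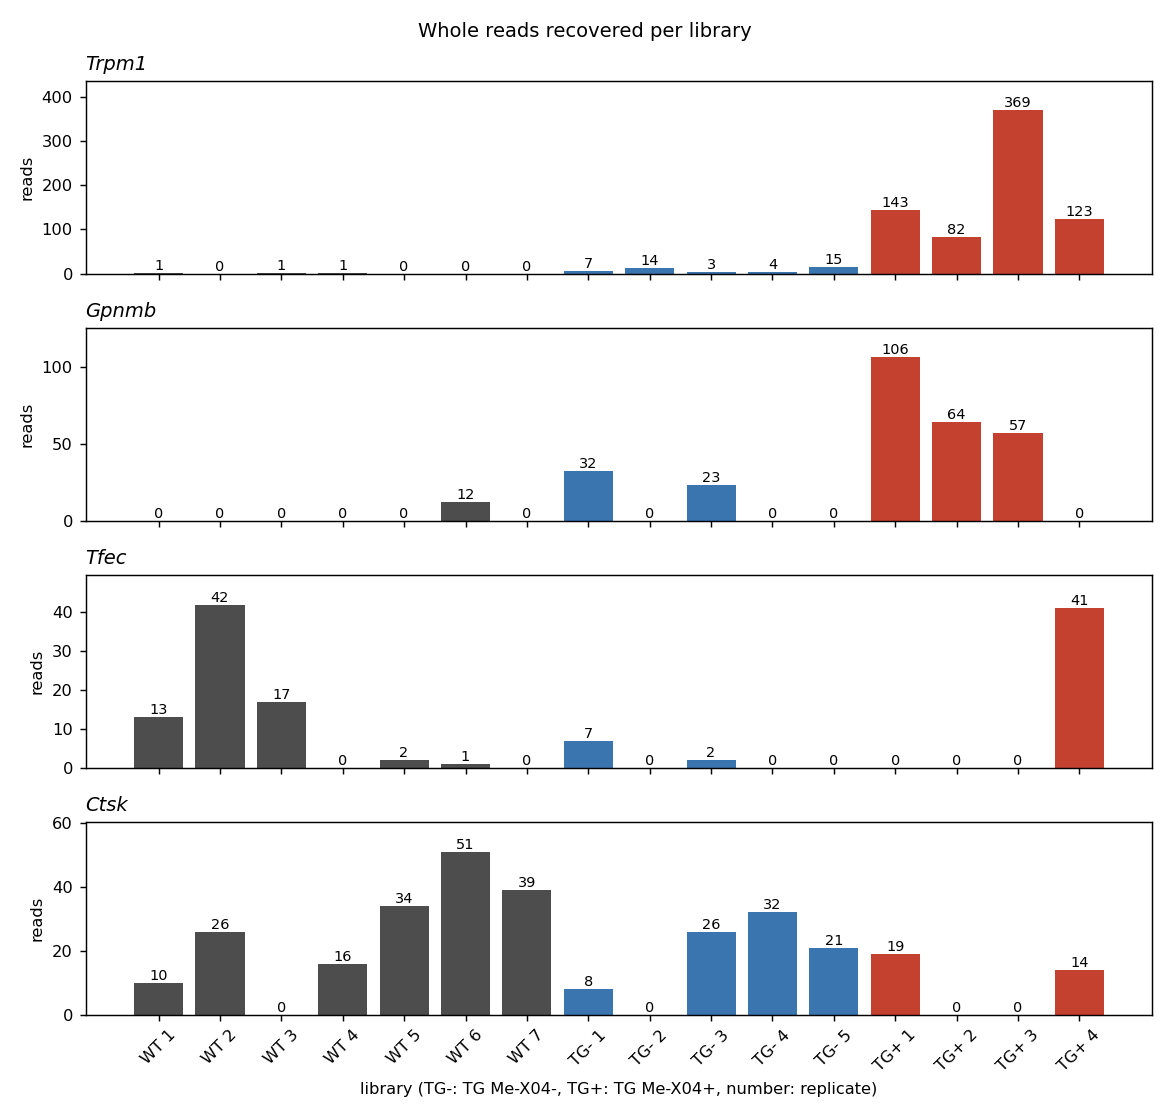
Whole reads per library (y axis, linear from 0) for the 4 genes with few reads, with libraries along the x axis (TG-: TG Me-X04-, TG+: TG Me-X04+). Trpm1 has 0 or 1 read in the WT libraries, 3 to 15 in TG Me-X04- and 82 to 369 in TG Me-X04+, while Gpnmb, Tfec and Ctsk have 0 reads in some libraries of each group.

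Trpm1 encodes a cation channel known from melanocytes and from ON-bipolar cells of the retina, and it is a classical target of Mitf in pigment cells. It lies at chr7:64153835-64269775 (plus strand, GRCm38), with 2 RefSeq starts in the promoter tables, the more downstream one inside the gene. The miRNA gene Mir211 (chr7:64205806-64205911) sits within Trpm1 on the same strand, in an intron of 12 of its annotated transcripts and outside the other 11, and was itself not analysed here. The 250 bases before each start are shown because Trpm1 moved most of the 7 genes, from RefSeq (GRCm38.p6), 5′ to 3′ on the plus strand. Capitals mark the E-box CACGTG, the palindromic core bound by MiT/TFE factors, and the M-box core CATGTG, searched on both strands.

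Trpm1 upstream start, chr7:64153585-64153834: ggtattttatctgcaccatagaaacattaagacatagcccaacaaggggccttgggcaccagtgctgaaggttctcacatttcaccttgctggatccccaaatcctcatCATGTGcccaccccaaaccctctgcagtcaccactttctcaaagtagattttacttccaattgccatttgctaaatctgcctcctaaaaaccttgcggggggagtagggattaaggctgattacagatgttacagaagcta
Trpm1 downstream start, chr7:64185209-64185458: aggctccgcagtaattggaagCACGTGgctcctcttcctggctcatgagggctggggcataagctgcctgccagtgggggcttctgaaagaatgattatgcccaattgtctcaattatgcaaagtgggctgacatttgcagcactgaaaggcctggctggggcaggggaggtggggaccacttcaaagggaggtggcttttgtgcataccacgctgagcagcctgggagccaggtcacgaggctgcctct

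The window at the upstream start holds CATGTG 141 bases before the start. That at the downstream start holds CACGTG 229 bases before it, and CATGTG a second time in opposite orientation 36 bases after it, outside the stretch printed. Among all 32851 promoter windows of 300 bases (250 before and 50 after a start), 7.15% hold CACGTG, 14.2% hold CATGTG on either strand and 0.326% hold the CLEAR palindrome, the E-box with GT before it and AC after it. The 7 listed genes have 13 such windows, and the other 11 hold none of these letters, which says only that these letters are not in those windows.

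Trpm1 was almost absent from WT microglia and was present in every TG library. The WT libraries had 1, 0, 1, 1, 0, 0 and 0 reads, the TG Me-X04- libraries 7, 14, 3, 4 and 15, and the TG Me-X04+ libraries 143, 82, 369 and 123. No group overlapped another, and the lowest TG Me-X04+ library had more reads than all TG Me-X04- libraries together. Groups that do not overlap were found for 7.93% of all genes between the TG populations, for 1.06% between TG Me-X04- and WT and for 10.5% between TG Me-X04+ and WT.

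On the log2 scale Trpm1 was at -6.62 ± 0.36 (SD, n = 7) in WT, -4.73 ± 0.88 (n = 5) in TG Me-X04- and -0.44 ± 0.78 (n = 4) in TG Me-X04+. It rose by a log2FC of 4.30 (SE 0.58, adjusted p = 0.000493) between the TG populations, and by 6.19 (SE 0.54, adjusted p = 1.14e-06) between TG Me-X04+ and WT. Between TG Me-X04- and WT the log2FC was 1.89 (SE 0.51, adjusted p = 0.260) and did not pass the threshold. Counted from the reads, the level of TG Me-X04+ was 25.4-fold that of TG Me-X04- (95% interval 18.7 to 35.4), and that of TG Me-X04- was 18.4-fold that of WT (5.88 to 92.6) with 43 reads against 3. Against WT the TG Me-X04+ level was 467-fold (159 to 2271) with 717 reads against 3. These intervals cover counting error only. The deposited scale adds about 2 reads to each value, so a log2FC understates the change of a gene with so few reads.

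The rise of Trpm1 was present in both sets, with a log2FC between the TG populations of 3.60 for set A and 4.80 for set B. It was present in all 4 pairs of libraries with the same TG label, at 4.39, 2.80, 6.31 and 4.39. The call between the TG populations held whichever of the 9 libraries was left out (log2FC 3.99 to 4.52). It ended where genes of a mean log2 RPKM under 0 were removed, since Trpm1 itself was then not tested.

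Gpnmb (chr6:49036546-49070929, plus strand) encodes a lysosomal and surface glycoprotein of phagocytes and pigment cells. WT libraries had 0 reads except replicate 6 with 12. TG Me-X04- libraries had 32, 0, 23, 0 and 0 reads and TG Me-X04+ libraries 106, 64, 57 and 0. In the TG Me-X04+ group 3 libraries stood above all others and replicate 4 was at 0, which allows up to 3 reads at its depth. The 2 TG Me-X04- libraries with reads, replicates 1 and 3, carry the labels of 2 of the TG Me-X04+ libraries that had reads too.

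Gpnmb rose in TG Me-X04+ against WT by a log2FC of 3.80 (95% interval 1.43 to 6.17, adjusted p = 0.0296), from -4.94 ± 0.97 to -1.14 ± 2.86. Between the TG populations the log2FC was 2.63 (0.09 to 5.17, adjusted p = 0.246), and without TG Me-X04+ replicate 4 it was 4.02 with an adjusted p of 0.0304. Within the sets the latter comparison gave 3.75 in set A and 1.28 in set B. The call against WT was lost without TG Me-X04+ replicate 1, 2 or 3 (log2FC 3.05 at the lowest, adjusted p up to 0.105), with library weights (log2FC 2.12) and with voom on the recovered reads (log2FC 4.56). The border macrophage markers, whose summed levels are given above, also reached their highest value in TG Me-X04+, and their part in the Gpnmb result was not tested.

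Ctsk (chr3:95499256-95509362, plus strand), the main collagenase of osteoclasts, did not follow the other targets. It had 10, 26, 0, 16, 34, 51 and 39 reads in WT, 8, 0, 26, 32 and 21 in TG Me-X04- and 19, 0, 0 and 14 in TG Me-X04+. Libraries at 0 occurred in every group. The log2FC was -0.92 (95% interval -3.10 to 1.25, adjusted p = 0.694) between the TG populations and -1.51 (-3.54 to 0.52, adjusted p = 0.340) against WT. Both intervals are wide and include 0.

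**Figure D3:**
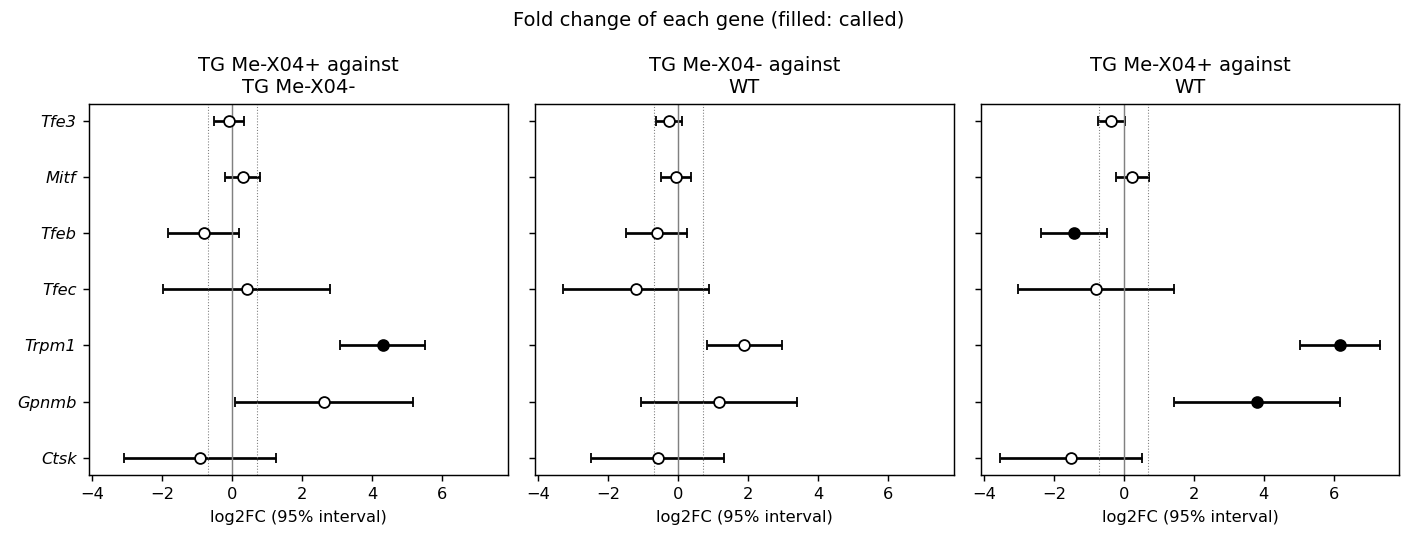
The log2FC of each gene (x axis) with its 95% interval from the limma fit for the 3 comparisons, with filled points for called genes and dotted lines at the fold threshold of 0.7 in either direction. Trpm1 is called between the TG populations (4.30) and in TG Me-X04+ against WT (6.19), Gpnmb and Tfeb in the latter only (3.80 and -1.42), and the intervals of Tfe3 and Mitf are the narrowest.

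Since the libraries of the 2 populations share the labels TG1 to TG4, they were also set side by side by label. That a shared label means the same brain is a reading of the label. Trpm1 was higher in the TG Me-X04+ library of 4 of 4 pairs and Tfeb lower in 4 of 4. Gpnmb was higher in 3 (by 2.00, 5.51 and 1.47 on the log2 scale) and at 0 reads in both libraries of the fourth. Mitf was higher in 2 and lower in 2, and the 2 pairs in which it was higher (TG3 and TG4) are those of set B. Tfe3 was lower in 3 and higher in 1. With 4 pairs no two-sided exact test can pass 0.05, and none was run.

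**Figure D4:**
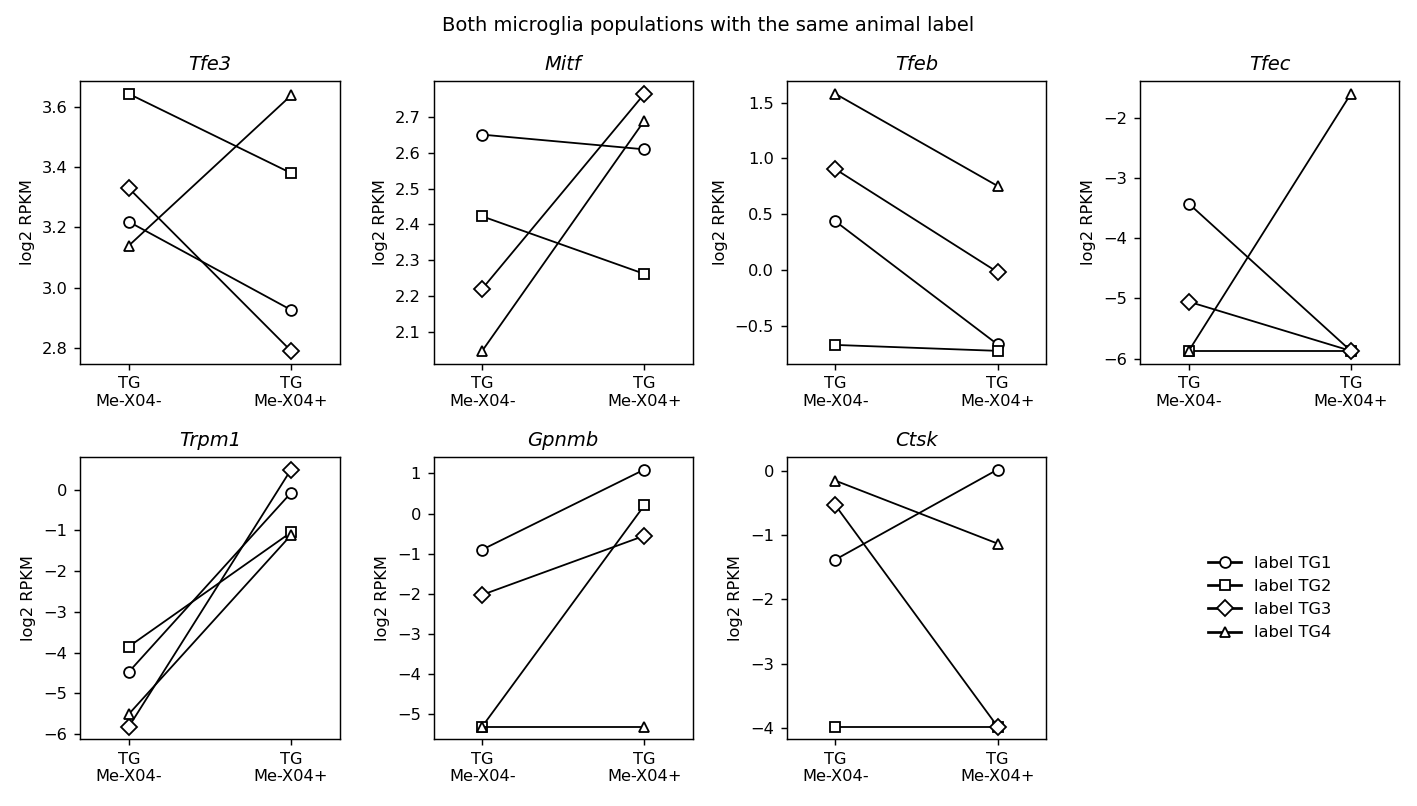
The log2 RPKM (y axis) of the TG Me-X04- library (left) and the TG Me-X04+ library (right) with the same animal label, joined by a line, for TG1 to TG4. All 4 lines rise for Trpm1 and all 4 fall for Tfeb, by as little as 0.05 in TG2, while those of Mitf and Tfe3 cross.

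The machinery that holds MiT/TFE proteins at the lysosome (mTORC1, Rag GTPases, Lamtor, folliculin, calcineurin) was read from 26 genes, of which 25 were listed. Of the 25, 1 was called between the TG populations, Rragd, where 5.49% of all genes were called. The median log2FC over the list was 0.09 against -0.09 over all genes. Rragd encodes a Rag GTPase that recruits mTORC1 and MiT/TFE proteins to the lysosome and is itself a known target of the family. It had 31 to 99 reads in WT (median 52), 80, 118, 73, 36 and 92 in TG Me-X04-, and 544, 128, 155 and 269 in TG Me-X04+. TG Me-X04+ lay above both other groups, which overlapped each other. Groups did not overlap for 7.93% of all genes between the TG populations and for 10.5% between TG Me-X04+ and WT. Rragd rose by a log2FC of 1.92 (adjusted p = 0.0463) between the TG populations and by 2.28 against WT (adjusted p = 0.00482). With 1 of the 9 libraries left out at a time the former call held only without TG Me-X04- replicate 2 or TG Me-X04+ replicate 3 (adjusted p up to 0.134 in the others), and it was lost with median centring, with quantile normalization, with scaling by reads outside mitochondrial genes and with the 2 groups alone in the fit (adjusted p up to 0.135), whereas that against WT held in all 23 alternatives in which Rragd was tested. Lamtor2, a subunit of the Ragulator complex, had a log2FC of -1.06 (adjusted p = 0.558) and was not called. With libraries scaled by reads outside mitochondrial genes 3 of the list were called lower and none higher. Against WT 1 rose (Rragd) and 2 fell (Rptor and Lamtor3, named after their values were seen), where 8.25% of all genes rose and 6.02% fell. Between TG Me-X04- and WT none was called (0.201% of all genes), none with an unadjusted p under 0.05 and none by voom.

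The CLEAR list held 32 lysosome and autophagy genes known as TFEB targets, all listed. Between the TG populations 8 rose and 1 fell, and 23 were not called, with a median log2FC of 0.76 and 26 of the 32 above 0. Against WT 16 rose and 1 fell (median 0.92), with 28 of the 32 above 0. Between TG Me-X04- and WT none was called by limma or by voom, and 6 had an unadjusted p under 0.05. There too 28 of the 32 were above 0 (median 0.30 against 0.01 for all genes), so this direction was not particular to the cells with dye. For comparison 3.44% of all genes were called higher and 2.06% lower between the TG populations, and 8.25% and 6.02% against WT. The share of mitochondrial reads moved with the groups, and scaling by the other reads turned the 617 genes higher and 369 lower between the TG populations into 250 and 905 (421 and 407 with quantile normalization), and the 1481 and 1081 against WT into 1021 and 1996. In the CLEAR list, with libraries scaled by their other reads, 5 rose and 1 fell between the TG populations (median 0.37). With quantile normalization it was 4 and 1 (median 0.31), and with only these groups in the fit 5 and 1. A term for the sets gave 14 and 1, but the sets come from these same values. Such a term lowers the spread within groups by construction. Leaving out TG Me-X04- replicate 5 left 4 that rose, and leaving out TG Me-X04+ replicate 2 or 3 left 5. Against WT the 16 became 11 with scaling by the other reads (median 0.61) and 10 with quantile normalization (median 0.50).

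Those that rose most were hydrolases. Ctsd, the aspartic protease cathepsin D, was at 9.90 to 10.75 log2 RPKM in WT (median 10.21), at 11.24, 11.51, 10.19, 10.24 and 10.15 in TG Me-X04- and at 12.09, 12.87, 12 and 12.36 in TG Me-X04+, and rose by 1.66 (adjusted p = 0.0175) between the TG populations. Glb1, beta-galactosidase, rose by 1.66 (adjusted p = 0.00139), from 362 to 755 reads per library in TG Me-X04- to 781 to 2054 in TG Me-X04+. Ctsb, the cysteine protease cathepsin B, rose by 1.54 (adjusted p = 0.000287), and its 3 groups did not overlap. The call of Ctsd was lost without TG Me-X04- replicate 5 or TG Me-X04+ replicate 2 (adjusted p = 0.0503 and 0.0599), with quantile normalization (log2FC 0.74) and with the 2 groups alone in the fit, while those of Glb1 and Ctsb held in every alternative.

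Sgsh, the heparan sulfate sulfatase, went the other way. It had 55 to 336 reads in WT (median 243), 68 to 426 in TG Me-X04- and 6, 6, 37 and 26 in TG Me-X04+, and fell by 3.46 on the log2 scale (adjusted p = 0.000983) between the TG populations and by 3.23 against WT (adjusted p = 0.000176). Both calls held in every alternative tried. The spans of Sgsh and Card14 overlap on opposite strands, those of Ctsb and Fdft1 likewise, and those of Glb1 and Tmppe on the same strand. Whether their exons overlap was not examined, and reads in any shared exon are uncertain.

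The promoters of this list are shown for 3 genes that rose and hold CACGTG, Ctsd and Glb1 by the size of their rise and Lamp1, the lysosomal membrane protein (log2FC 0.88, adjusted p = 0.0185), chosen after its sequence was seen for its 4 E-boxes. Capitals mark CACGTG, and each run is the 250 bases before the start from RefSeq (GRCm38.p6), written 5′ to 3′ on the strand of the gene.

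Ctsd, chr7:142387828-142388077, minus strand: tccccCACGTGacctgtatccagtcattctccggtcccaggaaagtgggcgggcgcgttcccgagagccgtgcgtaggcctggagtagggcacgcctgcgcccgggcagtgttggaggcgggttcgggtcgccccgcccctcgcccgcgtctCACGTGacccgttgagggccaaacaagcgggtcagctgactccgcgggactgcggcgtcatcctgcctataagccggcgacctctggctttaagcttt
Glb1, chr9:114400828-114401077, plus strand: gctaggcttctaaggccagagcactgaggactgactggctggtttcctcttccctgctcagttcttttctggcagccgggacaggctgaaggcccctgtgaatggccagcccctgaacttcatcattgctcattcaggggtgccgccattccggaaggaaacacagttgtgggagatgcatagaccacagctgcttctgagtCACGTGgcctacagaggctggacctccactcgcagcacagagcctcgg
Lamp1, chr8:13158911-13159160, plus strand: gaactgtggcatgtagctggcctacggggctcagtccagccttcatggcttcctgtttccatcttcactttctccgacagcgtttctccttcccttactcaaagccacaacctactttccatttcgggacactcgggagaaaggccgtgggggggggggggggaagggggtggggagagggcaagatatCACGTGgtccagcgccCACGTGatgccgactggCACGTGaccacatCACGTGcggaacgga

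CACGTG was present in a promoter window of 12 of the 24 genes of the CLEAR list that have a window, against 1181 of the 10375 listed genes with a window (11.4%). It was present in 5 of the 7 called higher between the TG populations (Ctsa, Ctsd, Glb1, Lamp1 and Naglu, not Gusb and Scpep1) and in 7 of the other 17, among them Sgsh, which fell. Trpm1 shares CACGTG with these genes at its downstream start, whereas no window of Gpnmb, Ctsk or the factor genes holds it. The CLEAR list was drawn up from genes with such elements, so the share over the list is a property of how the list was made. The full CLEAR palindrome was in the windows of 0 of these 24 genes, against 0.781% of the listed genes with a window.

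Osteoclast genes were listed for 8 of 12 symbols. Of the 8, 2 rose between the TG populations and none fell (median 0.58). Against WT 3 rose (median 0.78, also with genes at 0 reads in WT set at their bound). Genes with few reads were removed before deposit, so a gene at 0 reads in WT was listed only through its TG reads. Where genes of a mean log2 RPKM under 0 were removed, 5 of the list were tested. None of them was called between the TG populations (median 0.08), and 1 rose against WT (median 0.17). Of all genes 3.44% rose and 2.06% fell between the TG populations, and 8.25% rose against WT. Between TG Me-X04- and WT none was called by the limma fit or by voom, and 1, Dcstamp, had an unadjusted p under 0.05 and was called higher with library weights (adjusted p = 0.0263). Atp6v0d2, a proton pump subunit of osteoclasts and macrophages and a known Mitf and Nfatc1 target, had 0 reads in all 7 WT libraries, 9, 1, 0, 1 and 6 in TG Me-X04- and 51, 74, 10 and 64 in TG Me-X04+. It rose by 3.47 between the TG populations (adjusted p = 0.00636), and its level in TG Me-X04+ was at least 129.7-fold that of WT with a floor of 3 reads over the WT group. Dcstamp, the membrane protein required for osteoclast fusion, likewise had 0 reads in WT, 38, 3, 5, 20 and 1 in TG Me-X04- and 29, 48, 71 and 40 in TG Me-X04+. It rose by 2.49 (adjusted p = 0.0368), at least 123-fold against WT, and with 1 of the 9 libraries left out at a time the former call held only without TG Me-X04- replicate 1 or 4 or TG Me-X04+ replicate 4 (adjusted p up to 0.102 in the others). It was also lost with scaling by reads outside mitochondrial genes, with the 2 groups alone in the fit and with the replicate block (log2FC 2.05, adjusted p up to 0.135), and that of Atp6v0d2 with the 2 groups alone (adjusted p = 0.0522). These 2 genes are also the only listed ones of the 5 osteoclast markers, and Calcr, Ocstamp and Mmp9 were not among the listed genes.

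Pigment cell genes were listed for 4 of 16 symbols, and 12 were not, among them Tyr, Tyrp1, Dct and Mlana. Between the TG populations none of the 4 was called by limma (5.49% of all genes) or by voom, and 2 of them, Ednrb and Rab27a, had an unadjusted p under 0.05. Between TG Me-X04- and WT none was called by either and none had an unadjusted p under 0.05. Ednrb, the endothelin B receptor, had 16 to 88 reads in WT (median 29), 26 to 53 in TG Me-X04- and 5, 13, 2 and 3 in TG Me-X04+. Its log2FC was -2.26 (adjusted p = 0.0607) between the TG populations, where 5 of 21 alternatives called it lower, and it fell against WT by 2.30 on the log2 scale (adjusted p = 0.0197), a call lost without TG Me-X04+ replicate 3 or 4 (adjusted p = 0.0672 and 0.0581), with voom (adjusted p = 0.0503), with quantile normalization (log2FC -1.5), with log2(RPKM + 1) and with the 2 groups alone in the fit (adjusted p = 0.0501). Rab27a, which tethers melanosomes and lysosome-related organelles, had a log2FC of 0.58 (adjusted p = 0.243). Trpm1 and Gpnmb were called higher against WT while none of these 4 pigment cell genes was, although 1 of the 4 was called higher without WT replicate 2 or TG Me-X04+ replicate 3.

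Other factors that bind E-boxes were listed for all 15 symbols (Usf, Max and Myc partners, Srebf and clock factors). Bhlhe40, a repressor that binds CACGTG, was the only 1 called between the TG populations (5.49% of all genes) and the only 1 between TG Me-X04- and WT (0.201%). It had 2, 6, 1, 5, 9, 1 and 0 reads in WT, 113, 59, 33, 157 and 41 in TG Me-X04- and 129, 586, 634 and 895 in TG Me-X04+. It rose by 3.80 from WT to TG Me-X04- (adjusted p = 0.00378), by 3.01 from there to TG Me-X04+ (adjusted p = 0.0107) and by 6.81 from WT to TG Me-X04+ (adjusted p = 1.19e-06), the same order of groups as Trpm1. The call between TG Me-X04- and WT was lost with voom (log2FC 4.50, adjusted p = 0.105) and with log2(RPKM + 1) (log2FC 0.94). It was also lost with the block of replicate numbers, which ties WT to TG libraries of other animals (log2FC 3.41, adjusted p = 0.0663). Against WT 2 of the 15 rose in TG Me-X04+ (8.25% of all genes), Bhlhe40 and Srebf2, the latter named after its values were seen. Usf1 had a log2FC of -2.50 between the TG populations (adjusted p = 0.176), with 2 and 3 reads in the TG Me-X04+ libraries of set A and 150 and 190 in those of set B. The list's median was -0.08, and with libraries scaled by reads outside mitochondrial genes 2 of its genes were called lower.

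**Figure D5:**
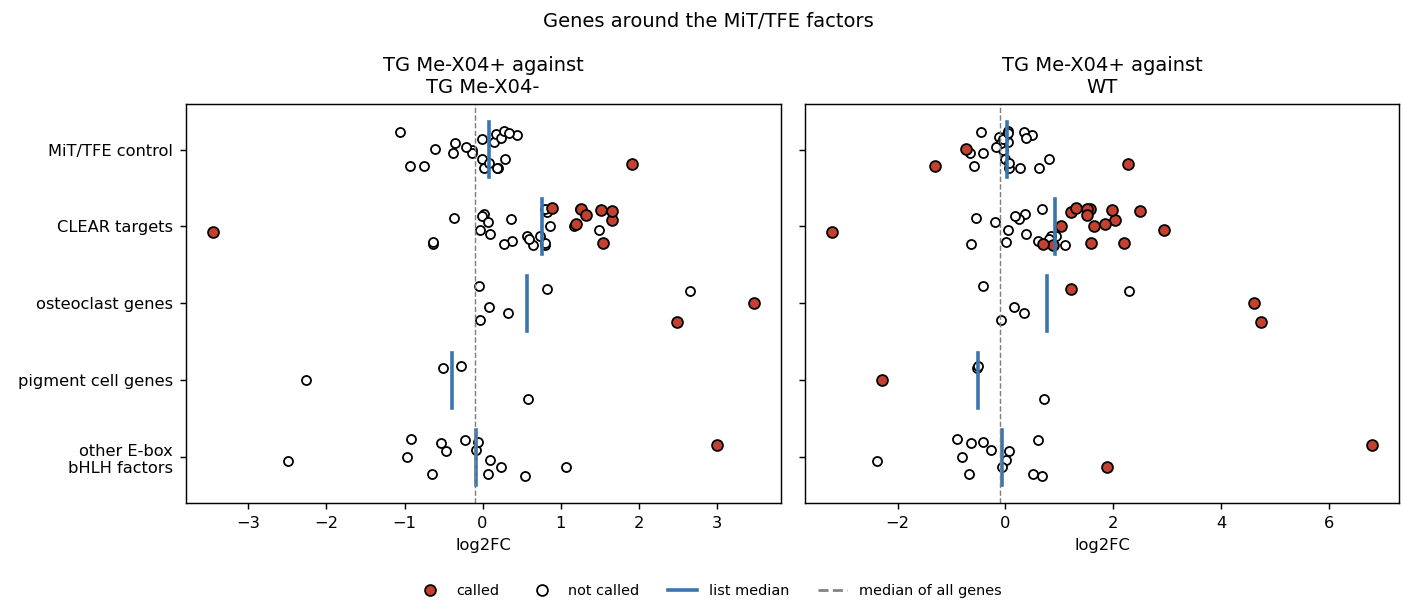
The log2FC of each listed gene (x axis) in the 5 lists (rows) for TG Me-X04+ against TG Me-X04- (left) and against WT (right), with red points for called genes, a blue line at the list median and a dashed line at the median of all genes. The CLEAR list has its median at 0.76 on the left and 0.92 on the right with Sgsh far to the left at -3.46 and -3.23, and Bhlhe40 lies far to the right at 3.01 and 6.81.

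The genes whose log2 RPKM went most alike with Trpm1 over the 16 libraries, among 13199 with a mean of at least 0, were Ank (Pearson r = 0.955), Plek (0.955), Csf1 (0.953), Pabpc1 (0.951) and Itgax (0.9499). All 5 were called higher between the TG populations. Of deviations from the group means the r was 0.07, 0.52, -0.00, 0.40 and 0.16, so for Ank and Csf1 the likeness lay between the groups and not among the libraries of a group. For Gpnmb the nearest were Fam50a (0.850), Tmem254b, Gm14438, Tmem254a and Ndufb5 (0.805), of which Tmem254b and Gm14438 were called. For Mitf they were Gm3650 (0.821), Gm13430, Gm5912, Csnk1g1 and Arhgap25 (0.737), none of them called.

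Among the 7 genes themselves, Mitf and its targets varied together only weakly over the 16 libraries, with r = 0.39 for Trpm1, 0.25 for Gpnmb and -0.38 for Ctsk. Trpm1 and Gpnmb had r = 0.64, and 0.01 once the group means were taken out. Tfeb went against Trpm1 (r = -0.72, and -0.44 for deviations). These are descriptions over libraries that share groups and sets, in part at very low counts.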

How the data were processed

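RNA of sorted mouse microglia was sequenced in 16 libraries, grouped by their labels into WT (7) and, in TG, Me-X04- (5) or Me-X04+ (4). Per the submitters' processing notes and the study's methods, reads were trimmed with Trim Galore 0.4.4, aligned to GRCm38 with STAR 2.5.4b and counted with featureCounts. Genes with few reads were removed, and library sizes were scaled by TMM. The authors deposited log2 RPKM for 17951 genes, with a column of gene lengths in bases (other). Strandedness of the counting is not given in the sources used here. Of the genes, 12919 carry a symbol in the table and 4874 were named by gene ID from the reference annotation.

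The members and all gene lists were chosen with earlier results of these data known. From the deposited log2 values the reads were recovered as whole numbers (100% of values within 0.01 of a whole read, after taking off a prior of about 2 reads). The groups were compared in 1 fit with limma 3.58.1 in R 4.3.3 (variance trend, two-sided, Benjamini-Hochberg over all genes). The unit called for a test on the log scale in place of the count test of the study's methods, whose thresholds were kept (adjusted p under 0.05, log2FC of at least 0.7 in size). Named were all 8 symbols, the 4 called genes of each list with the largest log2FC between the TG populations (or the top 2 where fewer than 2 were called), and the 5 genes most alike to Mitf, Gpnmb and Trpm1. Marker lists of microglia, border macrophages, melanocytes, osteoclasts and 8 other cell types served as a check.

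Alternatives changed the variance model, library weights, scaling, pseudocount, filter, libraries in the fit, the test (voom on the recovered reads), fold threshold and pairing. Others added a term for the 2 sets, which no label names as a batch, or left out each library in turn. TG libraries with the same number share a label (TG1 to TG4), and their deviations from the group means had r of 0.29 to 0.33 in all 4 pairs, so a block was fitted for them. Libraries of different labels in the same set had r of 0.22 to 0.33 and those of different sets -0.35 to -0.18, so r follows the sets and does not single out the shared labels. WT numbers mark other animals, but the block in the comparisons with WT used the replicate number over all groups. The fit was checked on simulated data. Promoter windows came from RefSeq (GRCm38.p6). Python 3.11.15, numpy 2.4.6, pandas 2.3.3, scipy 1.17.1 and matplotlib 3.10.9 were used.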

Additional observations from a re-analysis of the deposited data

Results flagged for a closer look

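In 21 sets of values (7 genes in 3 groups) the highest and lowest library were tested for standing apart from the rest of their group, for which chance alone flags about 5% of sets, and 3 were flagged. Tfec in TG Me-X04+ replicate 4 was at -1.61 log2 RPKM, with the other 3 libraries at 0 reads (gap over range 1). Gpnmb in WT replicate 6 was at -2.73, with the other 6 at 0 reads (gap over range 1). Ctsk in WT replicate 3 was the lowest of its group at -3.98 (gap over range 0.642), with 0 reads. Each of the 3 values rests on a group that holds libraries at 0 reads. Where all other libraries are at 0 reads, the gap over range is 1 by construction. The rate of 5% therefore does not apply to such groups, and the count of 3 cannot be set against it.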

How the results depend on the processing

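Of the 559 values recomputed, 527 kept their direction and their side of the threshold (a count, within 1.5 times its value). Values far from the threshold could hardly change side, so this total says little about the calls. Against WT the TG Me-X04+ call of Tfeb held in 14 alternatives and was lost in 10, and that of Gpnmb held in 18 and was lost in 5. Removing genes with a mean log2 RPKM under 0 took Trpm1 and Gpnmb out of the test and left 0 of the genes called between the TG populations and 1 (Tfeb) between TG Me-X04+ and WT, where voom on recovered reads also left 1 (Trpm1). With a library left out, 1 to 2 genes were called between the TG populations and 1 to 3 between TG Me-X04+ and WT. The differences that changed sign were none of them called: Mitf with libraries scaled by reads outside mitochondrial genes (-0.10 between the TG populations, 0.033 for TG Me-X04- and -0.063 for TG Me-X04+ against WT), Mitf between TG Me-X04- and WT without WT replicate 3 (0.033) or TG Me-X04- replicate 4 (0.0029 and -0.15 to 0.033 over the libraries left out), Tfec between the TG populations without TG Me-X04+ replicate 4 (-0.65, to 0.86 without other libraries) and against WT with library weights (1.06), Tfe3 between the TG populations without TG Me-X04+ replicate 3 (0.037, from -0.25), and Ctsk between TG Me-X04- and WT without TG Me-X04- replicate 2 (0.073, from -1.12). The cause was not tested. With the replicate block, which pairs the TG populations by label, 1 gene (Trpm1) was called between them (log2FC 4.47). For the comparisons with WT the block was the replicate number over all groups, which ties WT libraries to TG libraries of other animals. With it 2 genes were called between TG Me-X04+ and WT, and no call of a member changed other than that of Tfeb. Over all genes the block gave 848 called in place of 986, and 18 in place of 36 between TG Me-X04- and WT. The sets were taken from these same values, so a term for them lowers the spread within groups by construction. With that term the counts of 986, 36 and 2562 genes became 2142, 101 and 3919, which is no added support for a call. The first was 470 with only the 2 groups, 552 without TG Me-X04- replicate 5 and 624 without TG Me-X04+ replicate 2, and the second 175 with library weights, 13 with log2(RPKM + 1), 19 with the filter, 19 without TG Me-X04- replicate 1 and 23 without replicate 3 or 4 of that group. Depth limits Tfec, Gpnmb and Ctsk, with libraries at 0 reads in every group.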
